A study of Homo sapiens with 6 samples.

Results

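The respiratory chain genes were the 108 rows of the table whose symbols follow the naming of complex I to complex V subunits, out of 19823 rows in all. They comprised 13 protein-coding genes of the mitochondrial genome, 81 nuclear rows that encode a subunit or close relative, and 14 rows annotated as pseudogenes of such subunits. The rule used symbols and no measured value. Of the 108 rows, 105 had more than 5 reads in at least 4 samples and were tested. NDUFV2, NDUFA5P12 and ATP5PDP2 fell below that limit.

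The samples were neurons of the glutamatergic excitatory type derived from the human induced pluripotent line WTc11 and sequenced as poly(A)-selected RNA. All 6 samples carried an RBM12 knockdown, and no sample with normal RBM12 was part of the comparison. RBM12 encodes an RNA-binding protein that the study examined as a repressor of cAMP signalling downstream of G protein-coupled receptors. Of the 6 samples, 3 were untreated and 3 received isoproterenol, an agonist of β-adrenergic receptors that raises cAMP, at a dose and for a time that the labels do not give. The study's methods describe repression by CRISPR interference and neurons induced by the transcription factor NGN2, with the parental line relying on its native β2-adrenergic receptor. Nothing in the labels says that the replicates were separate cultures. The p-values thus rest only on spread between these samples, of the gene itself and of genes of similar level. That spread may be technical.

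The 13 genes of the mitochondrial genome are transcribed as long precursors from either strand and cut into single mRNAs, of which MT-ND6 is the only one read from its strand. Their products sit at the core of complexes I, III, IV and V, while complex II and all other subunits are encoded in the nucleus, translated in the cytosol and imported. Complexes I, III and IV pump protons with the energy of electron transfer, complex II feeds electrons in from succinate, and complex V, the ATP synthase, uses the gradient. Neurons depend heavily on this route for ATP.

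Promoter sequences (GRCh38.p14, RefSeq) were at hand for 66 of the 81 nuclear rows, as windows of 300 bases from 250 before to 50 after each annotated start. The 15 without one include NDUFS5, SDHC, UQCRHL, NDUFA4, NDUFA4L2, ATP5F1B and ATP5MC3, whose values are given below. Windows were searched on both strands for 5 motifs, and matches of different motifs were allowed to overlap. CGCATGCG, the core bound by NRF1, a regulator of nuclear genes for mitochondrial proteins, was in a window of 11 of the 66 members (16.7%), against 2.46% of 27305 genes with a window and 4.25% of the 11682 of those that were tested here. The following stretches are shown because they place this core in members of complexes I, II, IV and V, with the motif in capitals and the gene's own strand read 5′ to 3′.
NDUFS6 (complex I, chr5:1801348-1801383): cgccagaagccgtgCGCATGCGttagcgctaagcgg
SDHD (complex II, chr11:112086750-112086785): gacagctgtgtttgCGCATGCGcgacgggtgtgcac
COX6A1 (complex IV, chr12:120437880-120437915): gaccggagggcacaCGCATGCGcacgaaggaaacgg
ATP5MC2 (complex V, chr12:53676103-53676138): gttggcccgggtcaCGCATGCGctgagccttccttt

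TGACGTCA, the cAMP response element bound by CREB, is the sequence through which β-adrenergic signalling is best known to act on genes. It was in a window of 5 members (7.58%), namely ATP5MC1, ATP5ME, NDUFA10, NDUFB2 and SDHB, against 2.25% of all genes with a window and 3.66% of those tested. Of these stretches, 4 lay wholly before the start and are shown because isoproterenol acts through cAMP.
ATP5MC1 (complex V, chr17:48892716-48892751): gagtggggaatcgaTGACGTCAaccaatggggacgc
ATP5ME (complex V, chr4:674413-674448): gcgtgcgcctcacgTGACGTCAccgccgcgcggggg
NDUFA10 (complex I, chr2:240025369-240025404): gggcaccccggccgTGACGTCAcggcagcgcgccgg
NDUFB2 (complex I, chr7:140696641-140696676): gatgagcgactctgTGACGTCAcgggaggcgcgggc

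For the other 3 motifs, AANATGGC, the core bound by YY1, was in 26 members (39.4%), against 7.97% of all genes and 11.6% of those tested. CCGGAAG, the core of ETS factors such as GABP, was in 21 members (31.8%), against 12.2% and 20.6%. GGGCGG, the SP1 box, was in 44 members (66.7%), against 48.3% of all genes and 75.3% of those tested. These matches describe the letters of the windows and were not sites measured in these cells.

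Library depth ran from 18116816 to 21488793 reads and did not separate the groups. RBM12 stood at 244.3, 278.7 and 266.9 normalized counts in the untreated samples and at 194.6, 237.6 and 232.8 with isoproterenol. These groups did not overlap, where 6.19% of all tested genes lay wholly lower with isoproterenol. A difference in knockdown and an effect of isoproterenol cannot be told apart here. The 10 neuronal markers were SLC17A6 and SLC17A7 of the glutamatergic type and 8 of neurons in general. All were tested and none passed FDR 0.05 in limma without the block, a term for the replicate number. NEFL alone passed with it (log2 fold change -0.05). Their summed level was 676439 to 722465 normalized counts untreated and 660657 to 677385 with isoproterenol. Most of that sum was NEFL and NEFM, with untreated means of 289380 and 260503. They were the 2 markers with a negative log2 fold change, where 8 had a positive one. The row of TUBB3 was low, with means of 77.7 untreated and 81.1 with isoproterenol, for a cause that was not tested. The 3 inhibitory neuron markers GAD1, GAD2 and SLC32A1 summed to 55.3 to 60.0 and to 66.9 to 79.0. Astrocyte markers summed to 160 to 175 and to 134 to 157, oligodendrocyte markers to 1060 to 1094 and to 1115 to 1181, proliferation markers to 488 to 508 and to 492 to 594, and pluripotency markers to 19.4 to 19.8 and to 15.4 to 28.8. Members of a list could go both ways. GAD1 and GAD2 had log2 fold changes of 0.74 and 0.49, and SLC32A1 one of -0.38. MBP, most of the oligodendrocyte sum, had 0.13 and MOG 0.69, against -0.25 for OLIG1 and -0.78 for OLIG2. The part of cell makeup in the results was not tested, and in bulk RNA fewer cells of a type and less RNA per cell cannot be told apart.

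The mitochondrial genome supplied far more respiratory chain mRNA than the nucleus. Its 13 genes took 2.36%, 2.75% and 3.24% of the reads in untreated samples 1 to 3, and 2.37%, 2.74% and 2.75% in isoproterenol samples 1 to 3. The 81 nuclear rows together took 0.677%, 0.668% and 0.686% untreated and 0.657%, 0.658% and 0.669% with isoproterenol. Per kb of transcript, the median level in untreated samples was 40966 normalized counts for the mitochondrial genes and 1240 for the nuclear rows. MT-CO1, the catalytic subunit of complex IV, was highest at 89537 normalized counts per kb, followed by MT-ND4 of complex I at 82253. MT-ND6, also of complex I, was lowest at 967. Its mRNA is known to lack the long poly(A) tail of the others, and poly(A) selection was part of the library protocol. The part of that selection in its level was not tested.

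For the mitochondrial mRNAs, the spread among untreated samples was wider than the distance between the groups. MT-CO1 was at 116674, 134946 and 162577 normalized counts untreated and at 117887, 137334 and 133837 with isoproterenol. Sample 1 was the lowest of each group, and untreated sample 3 was the highest of all 6. All 13 genes were highest in untreated sample 3 among the untreated samples, and 12 of 13 were lowest in untreated sample 1. The coefficient of variation over the 3 untreated samples was 12.1% to 31.1% for the mitochondrial genes, with a median of 16.5%, against a median of 4.10% for the 80 nuclear rows tested and 8.09% for all 18130 genes tested. The summed mitochondrial mRNA changed by 0.0044 on the log2 scale in pair 1, by -0.0012 in pair 2 and by -0.25 in pair 3, a pair being the untreated and isoproterenol samples with the same replicate number. The summed mitochondrial rRNAs MT-RNR1 and MT-RNR2 moved by 0.031, 0.062 and -0.14 in the same pairs. Among tRNA rows, MT-TW had a log2 fold change of -1.76 (limma adjusted p 2.80e-05) and MT-TT one of -1.19 (limma adjusted p 0.144 unblocked and 0.00011 blocked).

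**Figure D1:**
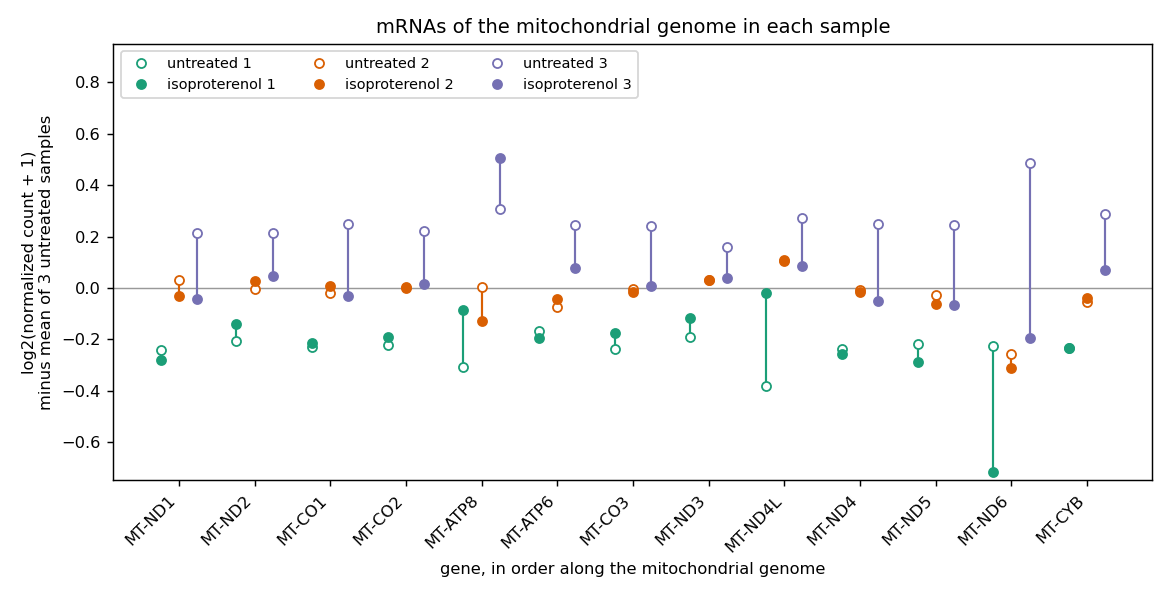
The y axis gives log2(normalized count + 1) of each mitochondrial mRNA minus the mean of its 3 untreated samples, and the x axis the 13 genes in genome order, with open circles for untreated samples, filled circles for isoproterenol samples and a line joining each same-numbered pair. Untreated sample 3 lies highest of the untreated samples for all 13 genes, while pairs 1 and 2 hardly move except at MT-ATP8, MT-ND4L and MT-ND6.

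With isoproterenol, 11 of the 13 mitochondrial mRNAs had a negative log2 fold change, with a median of -0.06 against 0.0015 over all tested genes. None passed FDR 0.05 in limma without the block (adjusted p 0.782 to 0.982), and no gene had groups that did not overlap. Without untreated sample 3 the median was 0.059, and without isoproterenol sample 1 it was 0.0081, so the direction rested on those libraries. The median in pairs 1, 2 and 3 was 0.015, -0.0042 and -0.22. MT-ND5, MT-ND4 and MT-CO1, the mRNAs of most reads, had log2 fold changes of -0.14 (SE 0.15), -0.11 (SE 0.15) and -0.08 (SE 0.15). Only MT-ATP8 (0.10, SE 0.26) and MT-ND4L (0.06, SE 0.19) had positive values.

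Some mitochondrial mRNAs share bases with a neighbour on the same strand. MT-ATP8 shares 46 of its 207 bases (22.2%) with MT-ATP6, both encoding complex V subunits. MT-ATP6 shares 6.90% of its own bases with its neighbours, and MT-ND4L shares 7 of its 297 bases (2.36%) with MT-ND4. The shared stretch of MT-ATP8 and MT-ATP6 (GRCh38) is shown because a read within it belongs to both genes, with the shared bases in capitals after the 15 bases that come before them.
MT-ATP8 into MT-ATP6 (chrM:8512-8572): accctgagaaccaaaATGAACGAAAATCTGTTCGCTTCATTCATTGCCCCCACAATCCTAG
MT-ATP8 was at 780.0, 969.6 and 1197 normalized counts untreated and at 911.0, 884.5 and 1373 with isoproterenol. MT-ND4L was at 4640.4, 6527 and 7296 untreated and at 5962, 6508 and 6412 with isoproterenol. Both groups overlapped widely. Rows for 17 nuclear copies of mitochondrial protein genes, such as MTATP6P1 and MTCO1P12, held counts equal to 1.83% to 2.23% of the mitochondrial sum per sample, and the part of multi-mapping reads in either set was not tested.

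MT-ND6, the lone mRNA of its strand, had the largest fold change of the 13. It was at 420.8, 412.2 and 690.0 normalized counts untreated (mean 507.7 ± 158.0, SD, n = 3) and at 299.3, 396.7 and 429.8 with isoproterenol (mean 375.3 ± 67.8, SD, n = 3). The isoproterenol value was below the untreated one in 3 of 3 pairs, by little in pair 2, although the groups overlapped. The log2 fold change was -0.41, with an SE of 0.26 and a limma adjusted p of 0.782 without the block. With the replicate number as a block, the SE was 0.080 and the limma adjusted p 0.000262. The log2 fold change of the single pairs ran widely, at -0.49, -0.055 and -0.68. Limma draws the SE toward the spread of genes of similar level, so this blocked p does not rest on the pairs of MT-ND6 alone. With the block and without pair 1, 2 or 3, the limma adjusted p was 0.00141, 6.89e-09 and 0.108. The other 12 mitochondrial mRNAs had limma adjusted p of 0.363 to 0.934 with the block.

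Relative to the other mitochondrial mRNAs, MT-ND5 was lower with isoproterenol and MT-ND2 higher. MT-ND5, which encodes a proton-pumping subunit of complex I, was at 149, 146 and 148 per 1000 counts of the 12 other mRNAs untreated and at 141, 142 and 142 with isoproterenol. MT-ND2, another membrane subunit of complex I, was at 80.4, 79.6 and 77.6 untreated and at 84.2, 81.6 and 82.7 with isoproterenol. These shares did not overlap between the groups and moved the same way in 3 of 3 pairs. MT-ND3 also did not overlap, with its nearest values at 21.655 untreated and 21.662 with isoproterenol. The shares of all the other mitochondrial mRNAs overlapped between the groups, that of MT-ND6 among them. MT-ND5, MT-ND2 and MT-ND3 are named here because theirs did not. Shares of one sum are bound to each other, and they were not tested. No such share was computed for other genes. As normalized counts, 6.19% of all tested genes lay wholly lower with isoproterenol and 6.73% wholly higher.

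The nuclear subunit genes differed little with isoproterenol, and none passed the test without the block. In limma without the block, 0 of the 105 tested members passed FDR 0.05 in either direction, where 0.0165% of all genes did (smallest adjusted p 0.435, UQCRC2). edgeR and DESeq2 on the recovered reads, without the block, also called 0 members. At an unadjusted p under 0.05, limma gave 8 members lower and 3 higher, against a background of 3.29% of all tested genes lower and 4.39% higher. The log2 fold change was negative in 55 of the 80 nuclear rows tested (68.8%), against 49.5% of all genes, and the median was -0.04. Within 0.1 of 0 on the log2 scale lay 54 of the 80, and within 0.2 lay 76.

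By complex, the median log2 fold change of nuclear rows was -0.05 over 35 genes of complex I, -0.07 over the 4 genes of complex II, -0.05 over 9 of complex III, -0.04 over 14 of complex IV and -0.02 over 18 of complex V. Without each sample in turn the medians stayed negative but moved widely, from -0.10 to -0.027 in complex I, from -0.098 to -0.020 in complex II, from -0.059 to -0.022 in complex III, from -0.041 to -0.015 in complex IV and from -0.052 to -0.0040 in complex V. The values nearest 0 came without isoproterenol sample 3 in complex II, without isoproterenol sample 2 in complex IV and without untreated sample 3 in the other three. The complexes were not tested against each other. Summed over its 14 rows, complex IV went from 27947 to 28270 normalized counts untreated to 26802 to 27441 with isoproterenol. The sum of the 9 complex III rows was 16655 to 17337 untreated and 16173 to 16373 with isoproterenol, and that of the 4 complex II rows 2926 to 2964 and 2664 to 2892. These 3 sums did not overlap between the groups, and they were not tested. SDHC made up most of the complex II sum. Its means were 2079 untreated and 1927 with isoproterenol, where the sum had means of 2946 and 2777. The sum of complex I was 39560.3 to 41085 untreated and 38818 to 39594 with isoproterenol, and that of complex V 51774 to 54890 and 52176 to 53447, which overlapped.

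**Figure D2:**
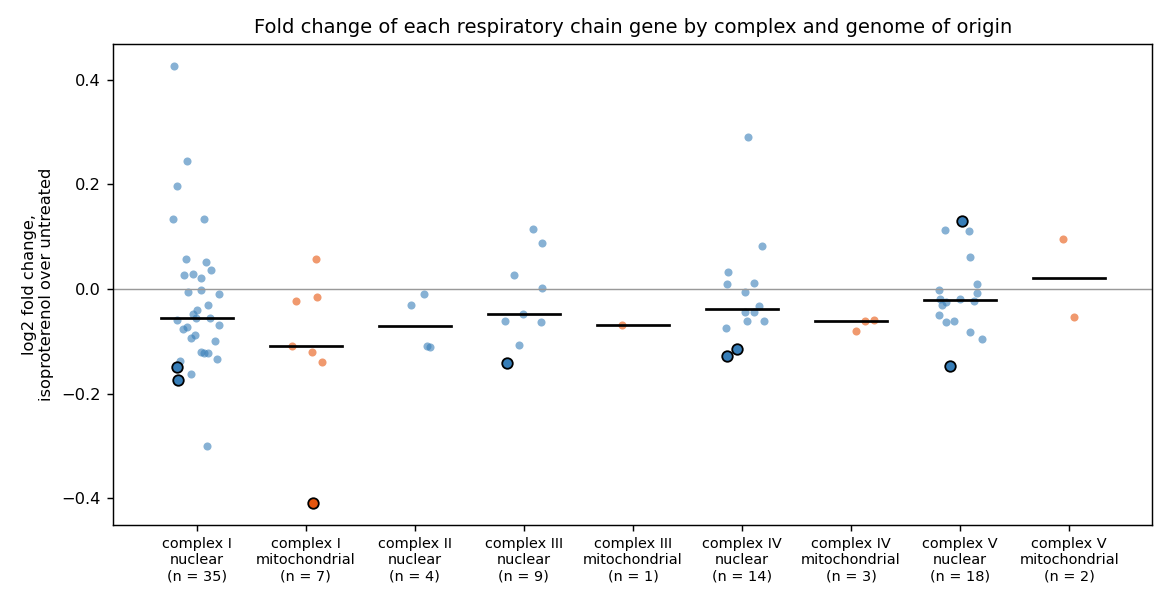
Each point is one tested gene, with its log2 fold change (isoproterenol over untreated) on the y axis and its complex and genome of origin on the x axis. Black bars mark medians and black rings the 8 genes past FDR 0.05 in limma with the replicate block. Most points lie within 0.2 of 0 and all nuclear medians lie just below it.

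Among nuclear rows, 27 of 80 (33.8%) were lower in all 3 pairs and 11 were higher in all 3, against 17.6% and 18.5% of all tested genes. Restricted to a mean of at least 500 normalized counts, where counting error is smaller, 26 of 64 nuclear rows (40.6%) were lower in all 3 pairs, against 22.5% of 7140 such genes. Over all tested members, the isoproterenol values all lay below the untreated ones in 13 and all above in 3, where 6.19% and 6.73% of all tested genes did so. The genes with no overlap and a lower level were NDUFA1, NDUFA6, NDUFA8, NDUFC1 and NDUFS4 of complex I, UQCRC2 of complex III, COX6C, COX7A2 and COX7C of complex IV, ATP5MC3 and ATP5PB of complex V, and the pseudogenes ATP5PDP4 and COX7CP1.

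Samples with the same replicate number deviated together, and a fit with the number as a block called 8 members at FDR 0.05 in limma. Of these, 1 was higher and 7 lower, where 2.82% of all genes were called higher and 2.06% lower. At a mean of at least 500 normalized counts, this fit called 1 of 64 nuclear rows higher (1.56%) and 6 lower (9.38%). Of the 7140 such genes in all, it called 5.07% higher and 4.15% lower. edgeR with the block called 1 higher and 14 lower, where 2.75% and 2.35% of all genes were called. The 8 members of limma were all among the 15 of edgeR. The others in edgeR were MT-ND5, MT-ND1, MT-ND4, MT-CO1, MT-CYB, NDUFA6 and SDHC, and for the 5 mitochondrial genes the adjusted p was 4.95e-07 to 0.0337 in edgeR against 0.576 to 0.805 in limma. The calls named below are those of limma with the block, and each was lost in at least 1 fit without a pair, as given. Such fits hold 4 samples, and in all of them the log2 fold change kept its sign, from -0.18 to -0.17 for NDUFS4, -0.18 to -0.12 for NDUFS5, -0.16 to -0.12 for UQCRC2, -0.16 to -0.11 for COX7A2 and -0.21 to -0.10 for ATP5MC2. It ran more widely for COX5B (-0.18 to -0.071), MT-ND6 (-0.59 to -0.27) and ATP5F1E (0.086 to 0.17), with the values nearest 0 without pair 1, 3 and 1.

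In complex I, NDUFS4 and NDUFS5, accessory subunits of the nuclear genome, were lower. NDUFS4 was at 833.3, 819.6 and 835.8 normalized counts untreated and at 745.4, 721.9 and 737.5 with isoproterenol. The lowest untreated sample stood well above the highest isoproterenol sample. Its log2 fold change was -0.17 (SE 0.062), with a limma adjusted p of 0.509 unblocked and 0.0454 blocked, and of 0.129, 0.154 and 0.203 with the block and without pair 1, 2 or 3.

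NDUFS5 was at 1473, 1617 and 1562 untreated and at 1279, 1528 and 1397 with isoproterenol, lower in each pair while the groups overlapped. Its log2 fold change was -0.15 (SE 0.063), and limma gave an adjusted p of 0.596 unblocked and 0.0181 blocked. Leaving out pair 1, 2 or 3 gave 0.217, 0.0187 and 0.144 in limma with the block.

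In complex III, UQCRC2, a core protein of the cytochrome bc1 complex, was lower. UQCRC2 was at 3376, 3601 and 3353 normalized counts untreated (mean 3443 ± 137, SD, n = 3) and at 3079, 3169 and 3110.1 with isoproterenol (mean 3120 ± 45.7, SD, n = 3). No values overlapped. The log2 fold change was -0.14 (SE 0.045), with a limma adjusted p of 0.435 unblocked and 0.000865 blocked. With the block and without pair 1, 2 or 3 the limma adjusted p was 0.00813, 0.0505 and 0.00492.

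In complex IV, COX7A2 and COX5B, nuclear subunits around the catalytic core, were lower. COX7A2 was at 2928, 2773 and 2969.9 normalized counts untreated and at 2617, 2666 and 2646 with isoproterenol, with no overlap. Its log2 fold change was -0.13 (SE 0.046), with a limma adjusted p of 0.520 unblocked and 0.00756 blocked, and of 0.122, 0.00365 and 0.169 with the block and without pair 1, 2 or 3.

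COX5B was at 2223, 2335 and 2147 untreated and at 1934, 2104 and 2158 with isoproterenol, lower in pairs 1 and 2 and near equal in pair 3. The log2 fold change was -0.11 (SE 0.053), and limma gave an adjusted p of 0.635 unblocked and 0.0494 blocked. Leaving out pair 1, 2 or 3 gave 0.515, 0.278 and 0.00919 in limma with the block.

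In complex V the members called went both ways. ATP5F1E, the epsilon subunit of the catalytic head, was at 3208, 3085 and 3232 normalized counts untreated and at 3727, 3199 and 3513 with isoproterenol, higher in 3 of 3 pairs with overlapping groups. Its log2 fold change was 0.13 (SE 0.052), with a limma adjusted p of 0.593 unblocked and 0.00349 blocked, and of 0.266, 0.000922 and 0.0317 with the block and without pair 1, 2 or 3. ATP5F1E shares 1180 exonic bases with TUBB1 on the opposite strand, and the strand setting of the counting was not given in the sources used here.

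ATP5MC2, one of a trio of genes for the c subunit of the proton-driven ring, was at 1234, 1514 and 1434 untreated and at 1224, 1289 and 1250.4 with isoproterenol, lower by little in pair 1. Its log2 fold change was -0.15 (SE 0.067), and limma gave an adjusted p of 0.628 unblocked and 0.0336 blocked. Leaving out pair 1, 2 or 3 gave 0.00344, 0.359 and 0.309 in limma with the block. Its paralogues ATP5MC1 and ATP5MC3 encode the same mature protein and had log2 fold changes of -0.09 and -0.06, neither past FDR 0.05 in either limma fit.

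**Figure D3:**
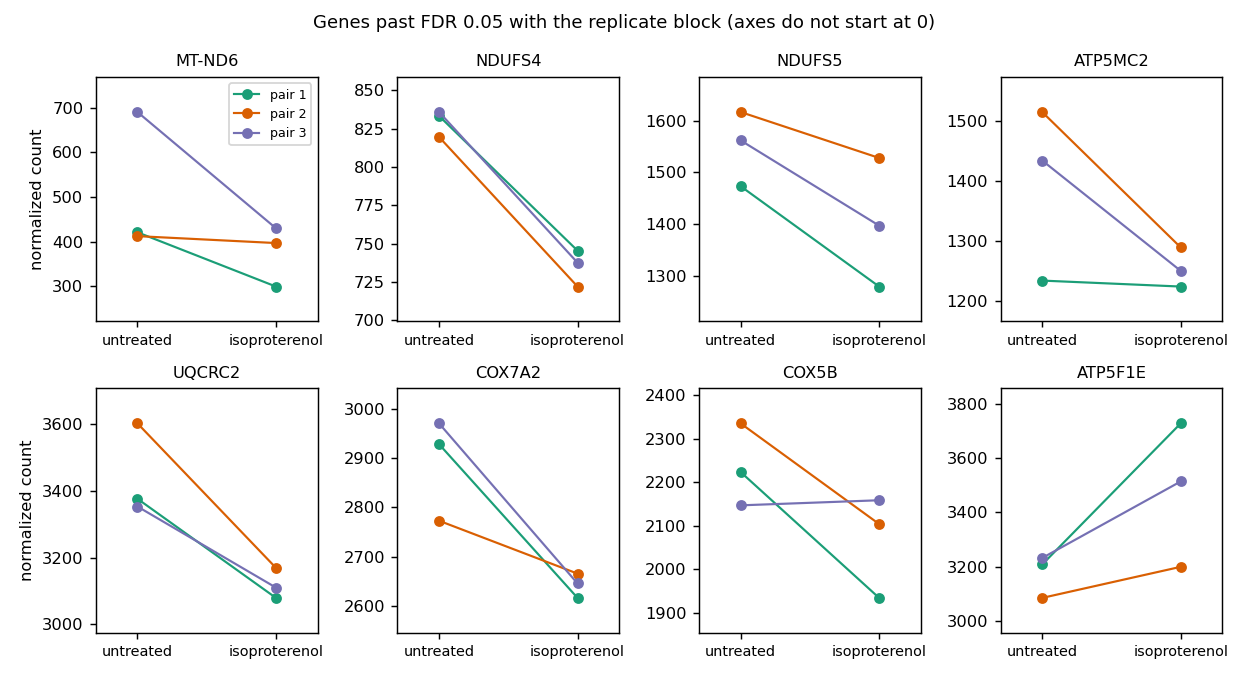
Each panel shows one of the 8 genes past FDR 0.05 in limma with the replicate block, with normalized counts on the y axis (not starting at 0), the groups on the x axis and a line for each same-numbered pair. Lines fall in 7 panels, except in pair 3 of COX5B, and rise in all 3 pairs for ATP5F1E.

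The 2 members next in the blocked fit were NDUFA6 and SDHC. NDUFA6, an accessory subunit of complex I, was at 1349, 1359.5 and 1430 normalized counts untreated and at 1258, 1246 and 1269 with isoproterenol (log2 fold change -0.13 with an SE of 0.053, limma adjusted p 0.593 unblocked and 0.0573 blocked). SDHC, a membrane anchor of complex II, was at 2069.6, 2161 and 2006 untreated and at 1845, 2095 and 1841 with isoproterenol (log2 fold change -0.11 with an SE of 0.056, limma adjusted p 0.661 unblocked and 0.0625 blocked). NDUFC1, another small complex I subunit, was at 687.1, 715.1 and 677.6 untreated and at 605.7, 652.7 and 631.9 with isoproterenol without overlap, and missed the threshold with the block (limma adjusted p 0.203).

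Of the members whose groups did not overlap and whose values were higher, NDUFA11 and NDUFA4L2 were nuclear subunit genes. NDUFA11, a membrane subunit of complex I, was at 68.9, 82.2 and 99.3 normalized counts untreated and at 103.77, 103.79 and 128 with isoproterenol (log2 fold change 0.43 with an SE of 0.17, limma adjusted p 0.582 unblocked and 0.0920 blocked). Its row shares 68.2% of the canonical transcript with another gene on the same strand, so its level is uncertain. NDUFA4L2, a paralogue of the complex IV subunit NDUFA4 best known as a hypoxia-induced gene, was at 139.9, 151.9 and 150.0 untreated and at 153.7, 161.5 and 152.8 with isoproterenol (log2 fold change 0.08, limma adjusted p 0.917).

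Pseudogene rows were low and scattered. Over the 12 tested, 7 log2 fold changes were positive and 5 negative, with a median of 0.039. ATP5F1AP3 was at 51.3 to 62.1 normalized counts untreated and at 65.9 to 98.5 with isoproterenol, ATP5PDP4 at 14.5 to 16.7 and 7.98 to 11.3, and COX7CP1 at 36.5 to 40.6 and 23.1 to 35.9. None of the 12 passed FDR 0.05 in limma with or without the block. Their reads could be split with the parent genes, so these levels are uncertain.

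Members with and without a promoter motif were compared by their median log2 fold change, with no test of the difference. All 5 members with the cAMP response element had a negative log2 fold change, from -0.09 to -0.01 with a median of -0.05, against a median of -0.04 over the 60 tested members without it, of which 41 were negative. None of the 5 passed FDR 0.05 in limma with the block. Of the 11 members with the NRF1 core, 9 were negative, and ATP5MC2 alone passed FDR 0.05 in limma with the block. Of the 54 tested members without that core, 37 were negative, and 4 lower and 1 higher passed. The median with and without a match was -0.0062 and -0.061 for YY1, -0.032 and -0.061 for SP1, -0.031 and -0.042 for the ETS core, and -0.031 and -0.046 for the NRF1 core. The window of UQCRC2 held none of the 5 motifs.

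Levels across the nuclear genes spanned a wide range per kb of canonical transcript. The highest were ATP5F1B, the catalytic beta subunit of complex V, at 8707 normalized counts per kb untreated, and COX7A2 of complex IV at 6256. In complex V the next was ATP5IF1, the inhibitor of ATP hydrolysis, at 4717. In complex IV, COX4I1 followed at 5899. In complex III, UQCRH, the hinge protein, stood at 5156 and UQCRC2 at 1799, in complex I NDUFS5 at 3133 and NDUFB2 at 2629, and in complex II SDHC at 1589 and SDHB at 621.

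The lowest rows were NDUFV2 in complex I at 3.47 normalized counts per kb, SDHA in complex II at 26.4, UQCR11 in complex III at 223, COX6B2 in complex IV at 22.1 and ATP5PO in complex V at 408. NDUFV2 and SDHA encode core catalytic subunits that each complex needs, and their rows were far below their partners. NDUFV2 was at 2.09, 5.81 and 1.03 normalized counts untreated and at 4.99, 4.61 and 3.08 with isoproterenol. SDHA was at 65.8, 62.9 and 84.8 untreated and at 61.9, 77.3 and 68.7 with isoproterenol, with no difference past its spread (log2 fold change -0.03, SE 0.18, limma adjusted p 0.982).

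Low level went with overlap in the annotation. In NDUFV2 90.0% of the canonical transcript lies within exons of another gene on the same strand in GENCODE release 44, and in SDHA 69.4%. A read in such a stretch fits both genes. Over the 81 nuclear rows, the 7 with more than 50% shared had 3.47 to 408 normalized counts per kb, the 12 with a smaller share 22.1 to 1457, and the 62 with none 156 to 8707. The 7 were NDUFV2, NDUFA13, NDUFA7, NDUFB8, SDHA, NDUFA11 and ATP5PO. The release the study counted on was not given in the sources used here, and the part of lost reads in these levels was not tested.

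**Figure D4:**
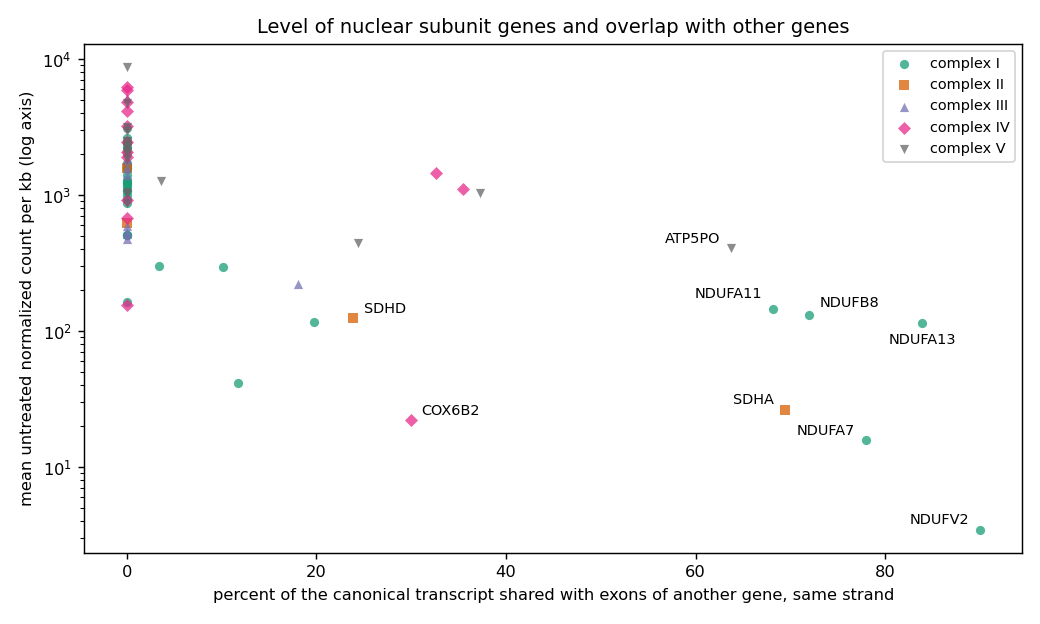
The x axis gives the percent of each nuclear gene's canonical transcript that lies within exons of another gene on the same strand, and the y axis (log) its mean untreated level in normalized counts per kb. The 7 genes sharing more than 50% all lie at or below 408, whereas genes with no shared base range from 156 to 8707.

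Among the 64 tested nuclear rows with at most 10% of the transcript shared, 47 were negative (73.4%), the median log2 fold change was -0.05, and limma with the block called 1 higher and 6 lower.

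Isoform pairs were unequal in level in these neurons. COX6B1, the general form of a complex IV subunit, was at 4176 normalized counts per kb against 22.1 for COX6B2, known from testis. NDUFA4 was at 1915 and NDUFA4L2 at 156, and COX7A2 at 6256 and COX7A2L, which helps to join complexes III and IV, at 919. The c subunit genes ATP5MC1, ATP5MC2 and ATP5MC3 were at 2035, 2206 and 1269. UQCRH was at 5156 and UQCRHL, a near-identical intronless copy, at 597, and reads may be split between them. COX4I2, COX6A2, COX7A1, COX7B2 and COX8C had no row under those names among the 19823 listed, so their levels are not known here.

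The other genes of the pathway were taken from lists of names, drawn up with earlier results of these data known. Of 5 subunits and carriers outside the naming rule, 1 was higher and 4 lower, and CYCS, the electron carrier cytochrome c, passed FDR 0.05 in limma with the block (adjusted p 0.0062). CYCS was at 8589.6, 8163 and 8659 normalized counts untreated and 7936, 7833 and 8075 with isoproterenol (log2 fold change -0.09, SE 0.038, limma adjusted p 0.596 without the block).

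Of 51 assembly factors tested, 32 (62.7%) had a negative log2 fold change, against 49.5% of all tested genes, with a median of -0.04. SDHAF4, which helps to assemble complex II, was at 462.6, 465.4 and 514.1 normalized counts untreated and at 376.2, 402.5 and 373.4 with isoproterenol (log2 fold change -0.32 with an SE of 0.082, limma adjusted p 0.254 unblocked and 0.00189 blocked). It was the 1 assembly factor of 51 past the threshold with the block, a share near the 2.06% of all tested genes called lower in that fit. Of 25 genes of mitochondrial transcription and RNA handling tested, 18 (72%) were negative, with a median of -0.04. LRPPRC, which stabilises mitochondrial mRNAs, was at 5984, 6018 and 6077 untreated and at 5583, 5863 and 5483 with isoproterenol (log2 fold change -0.10 with an SE of 0.040, limma adjusted p 0.596 unblocked and 0.0126 blocked). Of 13 genes of coenzyme Q synthesis, 7 were positive and 6 negative, with a median of 0.0012, and 0 passed FDR 0.05 with the block.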

How the data were processed

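Poly(A)-selected RNA of 6 samples was sequenced from directional libraries. Per the study's methods, the authors aligned reads to GRCh38 with STAR, counted them with featureCounts and divided the counts by DESeq2 size factors, so the deposited values are a normalized signal per gene. The labels' processing notes also name FastQC and Subread. Versions, annotation release and strand setting were not given in the sources used here. Every value was a whole number of reads within 0.01 after division by the size of 1 read, so reads were recovered for all values (100%).

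Genes with more than 5 reads in at least 4 samples were kept (18130 of 19823). The test was limma 3.58.1 (trend, robust) in R 4.3.3 on log2(normalized count + 1), which understates the change of low genes. It was two-sided, with Benjamini-Hochberg adjustment over all kept genes, at FDR 0.05. Limma draws each gene's spread toward that of genes of similar level. Each SE is from limma without the block unless stated. edgeR 4.0.16 quasi-likelihood and DESeq2 1.42.0 on the recovered reads, other scalings (TMM, total counts with and without mitochondrial genes), a pseudocount of 5, other limits on low values, the replicate block and leaving out each sample were the alternatives. Same-numbered samples deviated from their group means together (r of 0.27, 0.49 and 0.39 over 11587 genes, against -0.35 to 0.0058 for other numbers), and each number was treated as a pair. The pairing is read from the data, since the labels do not state it. The fits were also run on simulated counts, with changes larger than most of those named here. That run does not bear on differences as small as these. Replicates differed by more than sampling noise. Lengths and overlaps came from GENCODE release 44, with the Ensembl canonical transcript, in which 19742 of the IDs were found. ATP5MD and ATP5MPL carry the names ATP5MK and ATP5MJ there.

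The members and lists were chosen with earlier results of these data known. Named for their differences were all mitochondrial rows, members past FDR 0.05, the 10 smallest adjusted p with the block, and among members with no overlap and a mean of at least 10 the 5 largest rises and falls. NDUFA4 and NDUFA4L2 were placed in complex IV. Where a motif, level or edgeR call put another gene in the text, it was named for that and chosen after its values were seen.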

Additional observations from a re-analysis of the deposited data

How the results depend on the processing

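In limma without the block, 0 members were called in either direction under every other scaling, pseudocount and limit on low values tried, in edgeR, in DESeq2 and without each sample in turn (lowest and highest counts 0 and 0). With the replicate block limma called 1 member higher and 7 lower and edgeR 1 and 14. Apart from the calls given in the report, the pairing changed no call of a named member. Counts over all genes were 3 in limma, 10 in edgeR, 21 in DESeq2, 885 in limma and 925 in edgeR with the block, and 2 to 67 without one sample. In the blocked fit, added after seeing the data, leaving out pair 1, 2 or 3 gave 0, 2 and 1 members higher and 11, 13 and 3 lower, and TMM, total-count and total-count scaling without mitochondrial genes gave 8, 5 and 7 lower. The nuclear median log2 fold change ran from -0.056 to -0.018 without one sample. The mitochondrial median ran from -0.18 to 0.059, and was above 0 without isoproterenol sample 1 or untreated sample 3. Without one sample, the sign of 10 mitochondrial mRNAs turned: the log2 fold change ran from -0.13 to 0.084 for MT-ND2, -0.19 to 0.044 for MT-CO1, -0.17 to 0.052 for MT-CO2, -0.11 to 0.25 for MT-ATP8, -0.14 to 0.068 for MT-ATP6, -0.18 to 0.059 for MT-CO3, -0.11 to 0.064 for MT-ND3, -0.13 to 0.19 for MT-ND4L, -0.23 to 0.015 for MT-ND4 and -0.19 to 0.075 for MT-CYB. The causes were not tested. Over 28 named members and 16 alternatives, 407 of 446 comparisons kept direction and side of the threshold, 23 passed it where the value reported did not, and 16 reversed. With 3 samples a group, a median SE of 0.059 (log2) for nuclear rows and 0.15 for mitochondrial ones limits what could be detected.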
